A study of Mus musculus with 4 samples.

Results

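The clustered histone genes of mouse embryonic fibroblasts (MEFs) were examined by RNA sequencing after exposure of the cells to pigment epithelium-derived factor (PEDF), a secreted protein of the serpin family. They were taken by their names: genes whose symbol begins with Hist1h, Hist2h, Hist3h or Hist4h and that are annotated as protein-coding, 67 of the 55487 genes listed. Only 8 of these (*Hist1h2br*, *Hist1h2bp*, *Hist1h2bq*, *Hist1h2an*, *Hist1h2ao*, *Hist1h2ap*, *Hist1h4n* and *Hist1h4m*) carried such a symbol in the deposited table. The other 59 appeared there under newer symbols and were found by matching their gene identifiers to GENCODE release M21 for the mouse build GRCm38. In that release they still bore the older names, so that *H1f2* was *Hist1h1c* and *H2bc4* was *Hist1h2bc*. All 67 had the same coordinates in both sources. The values below refer to the 67 genes, and the 8 genes are also given on their own.

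The cells were wild-type MEFs from C57BL/6J embryos in 10% serum, at passage 2 by the labels, while the study's text names a later passage. They were left untreated or treated for 24 h with PEDF, purified from mammalian cells, at 100 ng/mL. Each condition was sampled in 2 experiments, each with MEFs from different embryos, so that control 1 and PEDF 1 came from experiment 1 and control 2 and PEDF 2 from experiment 2. MEFs are a mixed primary culture and not a cell line, and the libraries were made from RNA selected by its poly(A) tail. The comparison addresses the effect of PEDF on gene expression in these cells.

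Histones are the proteins around which DNA is wound. H2A, H2B, H3 and H4 form the core of the nucleosome, and H1 binds the DNA that enters and leaves it. The genes of the clusters are expressed mainly in S phase, when new DNA must be packaged, and their mRNAs are unusual in that most end in a conserved stem-loop in place of a poly(A) tail. The stem-loop is bound by the stem-loop binding protein SLBP and cut with the help of the U7 small nuclear RNP. A smaller number of these genes also give polyadenylated transcripts, which are known from differentiated and resting cells. Variant histones such as H2A.Z and H3.3 are encoded outside the clusters by ordinary polyadenylated genes that are expressed throughout the cell cycle.

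The stem-loop and the end of the annotated transcript are shown first, because the libraries were made from RNA selected by its poly(A) tail. A stem of 6 paired bases that opens with GG, around a loop of TTT and any 1 further base, was searched on the RNA strand of the annotated transcripts. It was present in 44 of the 67 genes in 6 distinct forms, with the 4 loop bases in capitals:
stem-loop of 26 genes (H1, H2A, H2B and H3): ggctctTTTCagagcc
stem-loop of 6 genes (H1, H2B and H3, among them *H3c3* at chr13:23745047-23745062, minus strand): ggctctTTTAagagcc
stem-loop of 1 gene (*H2ac20*, chr3:96220418-96220433, minus strand): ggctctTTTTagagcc
stem-loop of 7 H4 genes: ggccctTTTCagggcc
stem-loop of *H4c14* and *H4c9* (*H4c9* at chr13:22040966-22040981, minus strand): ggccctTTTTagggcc
stem-loop of *H4c11* and *H4c2* (*H4c11* at chr13:21735437-21735452, plus strand): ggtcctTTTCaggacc

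The stems thus separated the H4 genes from the other families. The stem that opens with ggctct was held by H1, H2A, H2B and H3 genes, and the other stems by H4 genes. Of the 58725 other protein-coding transcripts, 49 (0.0834%) held a sequence of this form. No such sequence was found in the annotated RNA of 23 genes, which says only that it is not in these gene models.

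A polyadenylation hexamer, AATAAA or ATTAAA, was searched in the last 50 bases of each annotated transcript on the RNA strand and was found in 17 of the 67 genes. In the other protein-coding transcripts it was found in 50.2%. The final 30 bases of 4 of the most abundant genes are shown with the hexamer in capitals:
*H1f2* (chr13:23740338-23740367, plus strand): ttctAATAAAaagcgtttagttttcattca
*H4c9* (chr13:22040636-22040665, minus strand): tctgtttacATTAAAagtattctatgctaa
*H2bu2* (chr11:58949504-58949533, plus strand): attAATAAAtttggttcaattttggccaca
*H2bc21* (chr3:96223709-96223738, plus strand): ttattattAATAAAgttaccgattagtttc

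Both a stem-loop and a hexamer were annotated in 13 genes. In *H1f2* the stem-loop lay at chr13:23739512-23739527 and the annotated transcript ran on for another 840 bases to its end, which holds the hexamer. In *H2aw*, the *Hist3h2a* gene on chromosome 11, the distance from the stem-loop to the end was 1643 bases. In *H3c3* it was 74 bases, with no hexamer.

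The 4 libraries held between 14722848 and 18144640 counts, and 22135 to 22647 genes were detected in each. Counts per 1000000 (CPM) below are scaled with TMM factors, which lay between 0.983 and 1.012. All 10 fibroblast markers, among them *Col1a1* and *Vim*, were detected, with a median of 997 TPM (counts divided by gene length and scaled to a sum of 1000000 per library) against 2.16 for 6 epithelial markers and 0.936 for 5 endothelial markers. The median was 13.5 TPM for macrophage, 2.87 for neural and 0.0304 for erythroid markers. The highest single marker was at 105 TPM in the macrophage list, 105 in the neural and 47.9 in the epithelial. The summed CPM ran from 80.5 to 126 for 6 macrophage markers, from 16.02 to 16.73 for the endothelial, from 42.0 to 57.0 for the epithelial, from 84.2 to 96.9 for 5 neural and from 0.0561 to 0.965 for 6 erythroid markers, 3 of which were at 0. The fibroblast markers summed to 47590 and 55420 in control 1 and 2 and to 43126 and 46539 in PEDF 1 and 2, and by edgeR 0 of the 10 were called without a block. With the block described below 4 were called lower, where 2.07% of all tested genes were, and 1 higher, where 1.67% were, and of the 6 macrophage markers 1 (*Lyz2*) was called higher. Their part in the results below was not tested, and a change in the mix of cells cannot be told apart from a change per cell in bulk RNA.

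The clustered histone genes were a small and uneven share of the poly(A) RNA. They took 0.0134% of all counts in control 1, 0.0125% in control 2, 0.0171% in PEDF 1 and 0.0147% in PEDF 2. Of their 9488 counts, *H1f2* and *H2bc4* held 7103 (74.9%), and the other 65 genes shared 2385 (25.1%). Counts were detected for 51 and 53 of the 67 genes in control 1 and 2 and for 51 and 50 in PEDF 1 and 2.

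Over all 4 libraries, 7 genes had no count, 17 had between 1 and 9 counts, and 43 had at least 10 and were tested. Only 13 reached 50 counts. The genes without a count were *H2ac1*, *H2bc1*, *H2ac18*, *H3c14*, *Hist1h2an*, *Hist1h2ap* and *Hist1h4m*. *H2ac1* and *H2bc1* encode the testis forms TH2A and TH2B, and the testis H1 gene *H1f6* had a single count. At the depth of these libraries a count of 0 allows up to 3 counts, or 0.168 to 0.203 CPM, so that absence cannot be stated. This limit covers counting error only.

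Reads of these genes can also be lost between near-identical copies. The counts were of uniquely mapped reads, and in 28 of the 67 genes more than 50% of the 75-base windows of the transcript were found in the transcript of another gene. In *H2ac19*, with 36 counts, and *H3c14*, with 0, every window was shared. Shared windows can also come from a gene annotated at the same place, such as *Gm20634* on the same strand at *H3c14*. The median was 42.0% over the 67 genes, compared with 6.66% for *H1f2* and 27.1% for *H2bc4*. Levels of the highly shared genes are therefore uncertain. Another gene overlapped on the opposite strand in 21 of the 67 genes and on the same strand in 7. The libraries were directional, but the strand setting of the counting is not given in the sources used here.

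Compared per length, *H1f2*, which encodes the linker histone H1.2, stood highest with a mean of 145 TPM over the 4 libraries (126 and 127 in the controls, 173 and 156 with PEDF). *H2bc4*, an H2B gene, followed with 67.7 TPM (65.7 and 57.1, then 74.0 and 74.2). The next genes were *H4c9* (26.0 TPM), *H2bu2* (9.59), *H2aw* (6.09), *H2ac8* (4.93) and *H3c3* (4.59). The order of the first 3 was the same in every library. The median of the 67 genes was 0.832 TPM, and the highest of the median TPM values of the families was 1.07, shared at this precision by H3 and H4, with H2B at 0.991, H1 at 0.779 and H2A at 0.528. *H1f2* and *H2bc4* thus stood far above the typical gene of their families. The median was 0.748 TPM for H1 without *H1f2* and 0.832 TPM for H2B without *H2bc4*.

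The annotated 3′ end divided the genes into 4 sets. A limit of 100 bases after the stem-loop was used, chosen after the distances were seen, with 74 bases the longest distance within it and 151 the shortest beyond it. The 17 genes with a hexamer near the end held 69.9% of the clustered histone counts, and 7 of them reached 50 counts. Another 11 genes ran past the stem-loop without a hexamer, and 4 of these reached 50 counts. Of the 20 genes that ended at the stem-loop without a hexamer, 1 (*H3c3*) reached 50 counts, and the set held 303 counts (3.19%). The remaining 19 genes had neither motif, and *H2bc4* was the only one of them above that level.

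The sets differed less in their typical gene. The median level was 0.832 TPM for genes with a hexamer, 0.809 for those past the stem-loop, 1.11 for those that ended at it and 0.675 for those with neither. The high total of the hexamer set came from its top, with *H1f2* at 145 TPM. Since these genes differ in length and in shared sequence, this is a description with no test.

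**Figure D1:**
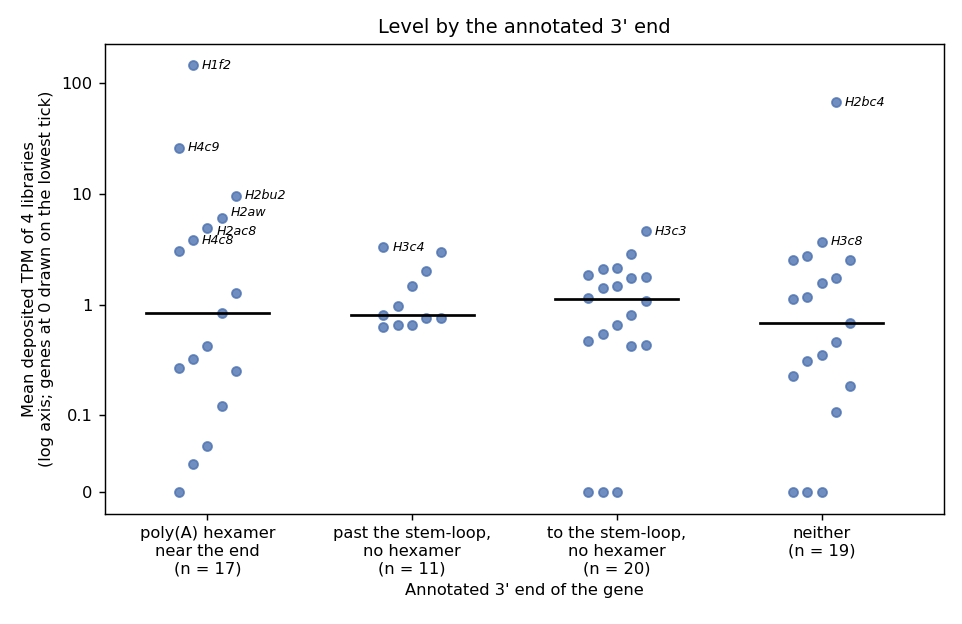
Mean deposited TPM over the 4 libraries of each of the 67 clustered histone genes (log axis; genes at 0 are drawn on the lowest tick) by their annotated 3′ end; black lines are medians. *H1f2* at 145 TPM and *H4c9* at 26.0 stand at the top of the set with a hexamer and *H2bc4* at 67.7 at the top of the set with neither motif, while the 4 medians lie between 0.675 and 1.11.

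PEDF was then compared with control. The 2 most abundant clustered histone genes were higher with PEDF in both experiments, and the rest of the clusters showed no common direction. Summed over the 67 genes, the level was 134 and 127 CPM in control 1 and 2 and 169 and 147 CPM in PEDF 1 and 2, a ratio of 1.26 in experiment 1 and 1.16 in experiment 2. *H1f2* and *H2bc4* together gave 97.0 and 91.1 CPM in the controls and 129 and 114 CPM with PEDF (ratios of 1.33 and 1.25). The other 65 genes gave 36.9 and 36.2 CPM in the controls and 39.2 and 32.9 CPM with PEDF, with ratios of 1.06 and 0.911 that lay on opposite sides of 1. The share of *H1f2* among the clustered histone counts was 52.3% and 53.7% in the controls and 58.2% and 57.4% with PEDF.

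**Figure D2:**
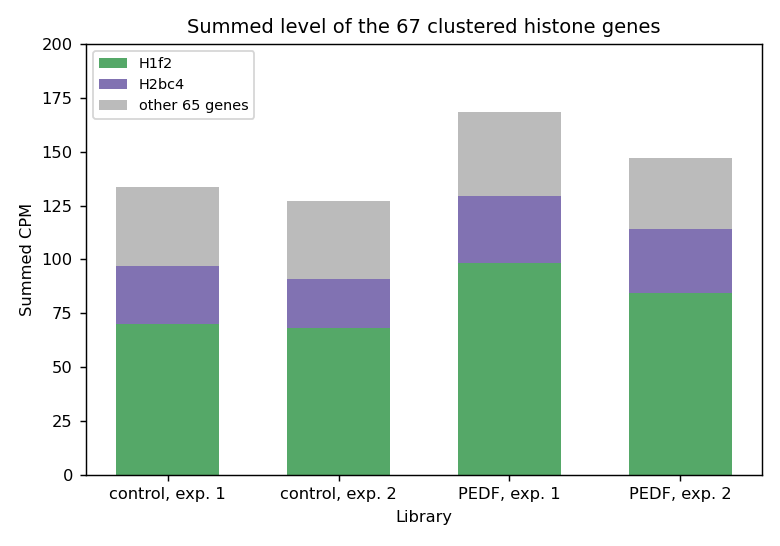
Summed CPM of the 67 clustered histone genes in each library, divided into *H1f2*, *H2bc4* and the other 65 genes. The whole bar is at 134 and 127 CPM in the controls and at 169 and 147 CPM with PEDF, whereas the part of the other 65 genes stays between 32.9 and 39.2 CPM.

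In the quasi-likelihood test of edgeR with no block, 0 of the 43 tested genes passed an adjusted p of 0.05, where 0.00516% of all 19384 tested genes passed. An unadjusted p under 0.05 was reached by 6 of the 43, against 6.88% of all tested genes, 4 higher with PEDF (*H1f2*, *H2bc4*, *H3c4* and *H2ac6*) and 2 lower (*H3c3* and *H2ac10*). By DESeq2 the adjusted test also gave 0. With the experiment number as a block, since the cells of an experiment came from the same embryos, 2 of the 43 passed in edgeR, *H1f2* and *H2bc4*. Both were higher with PEDF, where 1.67% of all tested genes were called higher and 2.07% lower. This blocked fit leaves 1 residual degree of freedom per gene, and the fit without the block leaves 2. Both fits add a spread pooled over genes to this. For *H1f2* and *H2bc4* nearly all the weight in the blocked fit lay on the pooled spread. Their p-values there say little of how far the 2 experiments differed for that gene.

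*H1f2* lies at chr13:23738808-23740367 on the plus strand as a single exon of 1560 bases. Its counts were 1033 and 1218 in control 1 and 2 and 1526 and 1505 in PEDF 1 and 2. The level was 70.0 and 68.3 CPM in the controls (69.1 ± 1.21, SD, n = 2) and 98.2 and 84.5 CPM with PEDF (91.3 ± 9.69, SD, n = 2), so that both PEDF libraries lay above both controls. The fold change was 1.32, or 0.40 on the log2 scale with a standard error of 0.09, and edgeR gave an adjusted p of 0.365 without the block. With the block, *H1f2* rose by 0.40 on the log2 scale with a standard error of 0.06 (edgeR, adjusted p = 2.49e-08). DESeq2 with the same block gave the same log2 difference with an adjusted p of 0.128 over all tested genes, an alternative added after seeing the data. Within experiment 1 the log2 difference was 0.49 (95% counting interval 0.37 to 0.60) and within experiment 2 it was 0.31 (0.20 to 0.42).

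*H2bc4* lies at chr13:23684199-23692908 on the plus strand with 2 exons. Its counts were 398 and 407 in the controls and 485 and 531 with PEDF. The level was 27.0 and 22.8 CPM in the controls (24.9 ± 2.94, SD, n = 2) and 31.2 and 29.8 CPM with PEDF (30.5 ± 0.990, SD, n = 2), again without overlap. The log2 difference was 0.30 with a standard error of 0.11, a fold change of 1.23 with an edgeR adjusted p of 0.696 without the block. In the blocked fit *H2bc4* passed by a narrow margin (0.30 on the log2 scale, standard error 0.09, edgeR adjusted p = 0.0452). DESeq2 with the same block gave the same log2 difference and did not call it (DESeq2, unadjusted p = 0.0997). The difference was 0.21 in experiment 1 (95% counting interval 0.02 to 0.41) and 0.39 in experiment 2 (0.20 to 0.58). Without the block, leaving out control 2 brought the difference to 0.18.

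**Figure D3:**
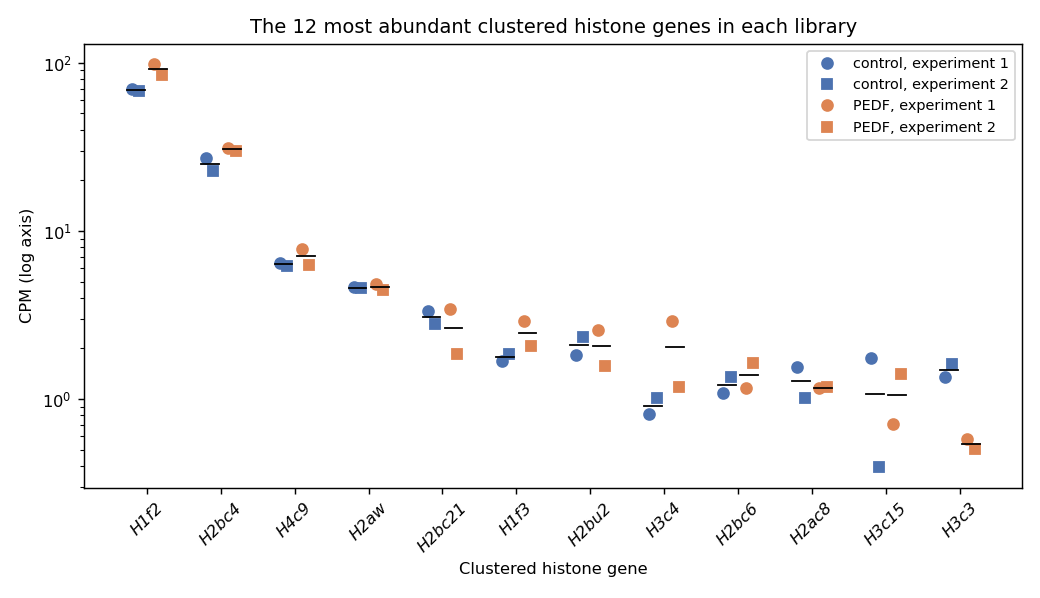
CPM (log axis) of the 12 most abundant clustered histone genes in each library, with blue for control, orange for PEDF, circles for experiment 1, squares for experiment 2 and a black line for the mean of each pair. Both PEDF points of *H1f2*, *H2bc4*, *H1f3* and *H3c4* lie above both control points, and those of *H3c3* at 0.579 and 0.505 CPM lie below the controls at 1.36 and 1.63 CPM.

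The log2 ratio of PEDF to control varied with gene length, and the clustered histone genes are short. Ratios between libraries of the same treatment varied with length to a similar degree. Their median exon length among tested genes was 704 bases, compared with 3614 for all tested genes. The log2 ratio of PEDF to control fell by 0.0402 in experiment 1 and by 0.0560 in experiment 2 with each doubling of exon length, while the corresponding slope between the control libraries of the 2 experiments was 0.0504 and between the PEDF libraries 0.0346. With the block and a correction for this trend, *H1f2* remained called at 0.31 on the log2 scale (edgeR, adjusted p = 5.85e-05), where 0.913% of all tested genes were called higher. *H2bc4* was then at 0.21 with an edgeR adjusted p of 0.336, and 1 of the 43 genes was called.

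Among the linker histone genes, *H1f3* (H1.3) had the most counts after *H1f2*, although per length *H1f5* stood above it (1.13 against 0.809 TPM). That order depends on the annotated lengths, 743 bases for *H1f5* and 7425 for *H1f3*, of which 4884 lie after the stem-loop. The counts of *H1f3* were 25 and 33 in the controls and 45 and 37 with PEDF, without overlap in CPM, and its log2 difference was 0.48 with a standard error of 0.34 (edgeR, adjusted p = 0.795 without the block and 0.591 with it). Leaving out PEDF 1 brought *H1f3* to 0.22, and leaving out PEDF 2 to 0.70. *H1f4* (H1.4) had 13 and 9 counts in the controls and 4 and 7 with PEDF, and *H1f5* (H1.5) had 2 and 5 against 4 and 9. Without *H1f2* the 5 other H1 genes summed to 2.78 and 2.75 CPM in the controls and 3.67 and 2.97 CPM with PEDF. Their ratios of 1.32 and 1.08 thus rested on 200 counts in all.

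The H2A genes showed no common direction. Of 18 genes 9 were tested, 5 with a positive and 4 with a negative log2 difference, and their sum was 9.22 and 8.18 CPM in the controls and 9.07 and 8.76 CPM with PEDF. *H2aw*, the most abundant in CPM, had 68 and 82 counts in the controls and 75 and 79 with PEDF, a log2 difference of 0.01 with a 95% interval from -0.47 to 0.48. *H2ac8* had 23 and 18 against 18 and 21 counts (log2 difference -0.12). *H2ac6* and *H2ac10* fall outside the rule for named genes and are given after their values were seen, because both had an unadjusted p under 0.05. *H2ac6*, which neighbours *H2bc4* at chr13:23681467-23683948 on the opposite strand, had 1 and 7 counts in the controls and 14 and 15 with PEDF. *H2ac10* had 16 and 4 counts in the controls and 2 and 0 with PEDF. Neither passed after adjustment in edgeR, with an adjusted p of 0.696 for each without the block, and 0.183 for *H2ac6* and 0.107 for *H2ac10* with it.

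Among the H2B genes, the difference of the family came from *H2bc4*. The 18 genes summed to 35.6 and 32.9 CPM in the controls and 40.7 and 37.7 CPM with PEDF. Without *H2bc4* the other 17 genes stood at 8.67 and 10.1 CPM in the controls and 9.52 and 7.91 CPM with PEDF, with ratios of 1.10 and 0.784. *H2bc21* had 49 and 50 counts in the controls and 53 and 33 with PEDF (log2 difference -0.23, standard error 0.32). *H2bu2* had 27 and 42 against 40 and 28 counts, and *H2bc6* had 16 and 24 against 18 and 29. In all 3 of these genes the ranges of the groups overlapped.

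The H3 genes held the extremes among genes with at least 50 counts. *H3c4* had 12 and 18 counts in the controls and 45 and 21 with PEDF, or 0.813 and 1.01 CPM against 2.90 and 1.18 CPM. Its log2 difference was 1.13 with a standard error of 0.47 (edgeR, adjusted p = 0.696 without the block and 0.171 with it). The difference came mostly from PEDF 1: it was 1.83 in experiment 1 (95% counting interval 0.89 to 2.89) and 0.22 in experiment 2 (-0.76 to 1.22), and 0.36 when PEDF 1 was left out.

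*H3c3*, at chr13:23744973-23745602 on the minus strand, went the other way. It had 20 and 29 counts in the controls and 9 and 9 with PEDF, or 1.36 and 1.63 CPM (1.49 ± 0.191, SD, n = 2) against 0.579 and 0.505 CPM (0.542 ± 0.0523, SD, n = 2). The log2 difference was -1.46 with a 95% interval from -2.52 to -0.40, and it was -1.23 and -1.69 in the 2 experiments. It did not pass after adjustment (edgeR, adjusted p = 0.696 without the block and 0.117 with it). *H3c15* had 26 and 7 counts in the controls and 11 and 25 with PEDF, so that its difference was -1.32 in experiment 1 and 1.84 in experiment 2. *H3c15* shared 62.6% of its windows with other genes.

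All H4 genes of the clusters encode the same protein. Of 13 genes 10 were tested, 3 with a positive and 7 with a negative log2 difference, and they summed to 10.0 and 9.81 CPM in the controls and 10.2 and 8.70 CPM with PEDF. *H4c9*, the most abundant, had 95 and 111 counts in the controls and 122 and 112 with PEDF. Its levels of 6.44 and 6.22 CPM against 7.85 and 6.29 CPM gave a log2 difference of 0.16 with a standard error of 0.19 (edgeR, adjusted p = 0.898). Leaving out PEDF 1 brought this to -0.01.

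The tested clustered histone genes fell on both sides of the control in both experiments. Of the 43 tested, 13 were higher with PEDF in both experiments, 11 were lower in both and 19 were neither, where 30.1% of all tested genes were higher in both and 28.8% lower in both. Both PEDF libraries lay above both controls in 6 of the 43 genes and below in 7, compared with 18.9% and 18.4% of all tested genes. Positive log2 differences were found in 20 and negative ones in 23, and the median was -0.02, beside 0.00118 for all tested genes. The tested clustered histone genes had a median of 23 counts over the 4 libraries and all tested genes one of 775.5, and the intervals of single members were correspondingly wide.

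**Figure D4:**
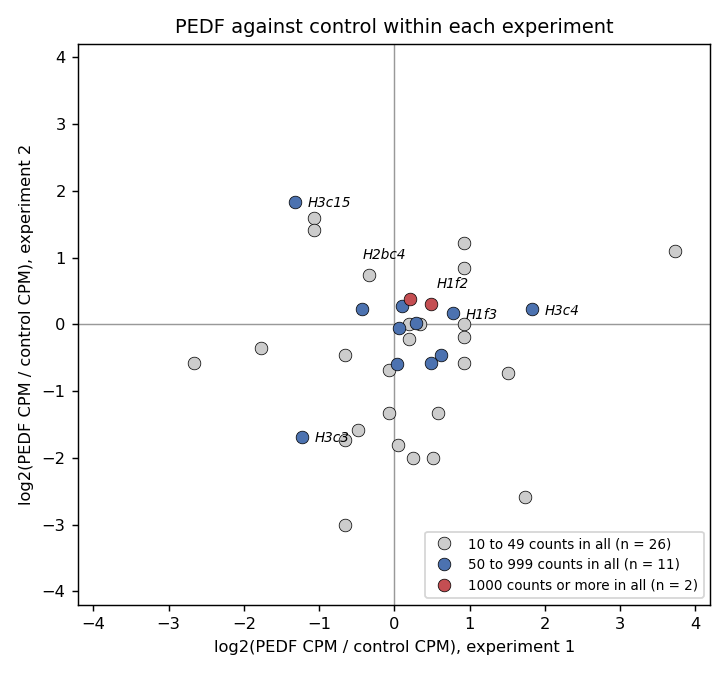
The log2 ratio of PEDF to control CPM in experiment 1 (horizontal axis) and experiment 2 (vertical axis) for the tested clustered histone genes, shaded by their total count; genes at 0 in a library, whose ratio is undefined, are left out. *H1f2* (0.49 and 0.31) and *H2bc4* (0.21 and 0.39) lie close to the origin in the upper right, *H3c3* (-1.23 and -1.69) in the lower left, and the genes with few counts spread in every direction.

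The annotated 3′ end was then set against the treatment. The genes with a hexamer, which include *H1f2*, summed to 90.5 and 89.0 CPM in the controls and 121 and 103 CPM with PEDF (ratios of 1.34 and 1.16). Without *H1f2* the other 16 stood at 20.5 and 20.7 CPM and 22.8 and 18.3 CPM, with ratios of 1.12 and 0.884. The 11 genes annotated past the stem-loop without a hexamer stood at 7.93 and 6.67 CPM and 9.84 and 8.03 CPM (1.24 and 1.20), and at ratios of 0.977 and 1.21 without *H3c4*. The 19 genes with neither motif had ratios of 1.12 and 1.22, and of 0.831 and 0.662 without *H2bc4*. The 20 genes that ended at the stem-loop gave 77 and 92 counts in the controls and 59 and 75 with PEDF, with ratios of 0.728 and 0.816. *H3c3* alone gave 20 and 29 of its control counts and 9 and 9 of its PEDF counts, and without *H3c3* the ratios were 0.833 and 1.05, on opposite sides of 1. Each set thus changed its direction in at least 1 experiment when a single gene, picked after its values were seen, was taken out. The medians of the fitted log2 differences of the tested genes were close to 0 in each set, at -0.01 with a hexamer, 0.03 past the stem-loop, -0.02 to the stem-loop and -0.03 with neither, and no test was made between the sets.

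The 8 genes that kept a Hist1h symbol in the deposited table held 40 counts, 0.422% of the clustered histone counts. They summed to 2 and 14 counts in the controls and 5 and 19 with PEDF, so that the experiments differed more than the treatments. *Hist1h4n*, with 1 and 8 counts against 2 and 7, and *Hist1h2bq*, with 1 and 3 against 2 and 7, were tested. *Hist1h2ao*, *Hist1h2bp* and *Hist1h2br* had between 2 and 5 counts each, and the other 3 had none.

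The histone variant genes outside the clusters gave far more counts in these poly(A) libraries, which do not measure histone mRNA without a tail. The 14 variants summed to 2036 and 1866 CPM in the controls and 2236 and 2025 CPM with PEDF. Of 11 tested, 9 had a positive log2 difference, with a median of 0.14. By edgeR 0 passed without the block and 2 of the 11 had an unadjusted p under 0.05, where 6.88% of all tested genes did. With the block 3 passed as higher, *H3f3a*, *H2az2* and *H2ax*, where 1.67% of all tested genes did. By DESeq2 with the same block 0 of the 11 passed when all tested genes were adjusted (*H3f3a*, adjusted p = 0.519), and 0 of the 6 that its default filter kept (0.0529). *H3f3a*, which encodes H3.3, had 5163 and 5329 counts in the controls and 6114 and 6223 with PEDF, a log2 difference of 0.20 (edgeR with the block, adjusted p = 0.00114, and 0.0131 with the length correction as well). Without the block it was 0.31 when control 1 was left out, 0.08 without control 2 and 0.11 without PEDF 1. *H2az2* had 651 and 575 against 755 and 772 counts (0.28 with an adjusted p of 0.0146 by the blocked edgeR fit). Without the block it was at 0.27, and at 0.51 without control 1 and 0.06 without control 2. *H2ax*, the variant phosphorylated at DNA breaks, had 2422 and 2823 against 2906 and 3154 counts (0.17 with an adjusted p of 0.0196 in the blocked edgeR fit). With the length correction *H2az2* was at 0.20 (edgeR, adjusted p = 0.203) and *H2ax* at 0.09 (edgeR, adjusted p = 0.516). The remaining variants named, *H2az1* (0.14), *H2aj* (0.06), *H3f3b* (0.11) and the linker histone of resting cells *H1f0* (0.14), did not pass.

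The factors that make and degrade histone mRNA did not pass in either direction. All 15 matched genes of the list of 16 were tested, 5 with a positive and 10 with a negative log2 difference and a median of -0.03, and 0 were called by edgeR with or without the block, with 0 at an unadjusted p under 0.05. *Slbp*, which encodes the stem-loop binding protein and stands in the S phase list as well, had 736 and 871 counts in the controls and 768 and 848 with PEDF, a log2 difference of -0.03. *Npat*, the activator of the clusters in S phase, was at -0.04 and *Casp8ap2* at 0.10. The U7 components *Lsm10* and *Lsm11* were at -0.01 and -0.10, and *Zfp473*, which binds the U7 complex, was at -0.13 with 14 to 27 counts per library.

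The S phase genes as a list also showed no common direction. Of 28 tested, 15 were positive and 13 negative, with a median of 0.02. By edgeR 0 passed without the block, where 3 of the 28 had an unadjusted p under 0.05 (6.88% of all tested genes), and 1 passed as higher with it (1.67% of all tested genes), *Tyms*, the thymidylate synthase gene, with 685 and 753 counts in the controls and 882 and 858 with PEDF (log2 difference 0.24, edgeR adjusted p = 0.0354 with the block). Without PEDF 1 the difference of *Tyms* was 0.12. Among 18 histone chaperones, 0 passed without the block, where 1 had an unadjusted p under 0.05, and 1 passed as lower with it, where 2.07% of all tested genes did. *Hjurp*, the chaperone of the centromere histone CENP-A, was that gene, at 2665 and 4114 counts in the controls and 2582 and 3286 with PEDF (-0.23, edgeR adjusted p = 0.000479). The difference of *Hjurp* was -0.04 without control 2 and -0.40 without control 1. By DESeq2 with the block and all tested genes adjusted, neither *Tyms* (adjusted p = 1.00) nor *Hjurp* (adjusted p = 0.951, and 0.109 with the default filter) passed. The lists were chosen with earlier results of these data known and give no independent evidence of a direction.

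**Figure D5:**
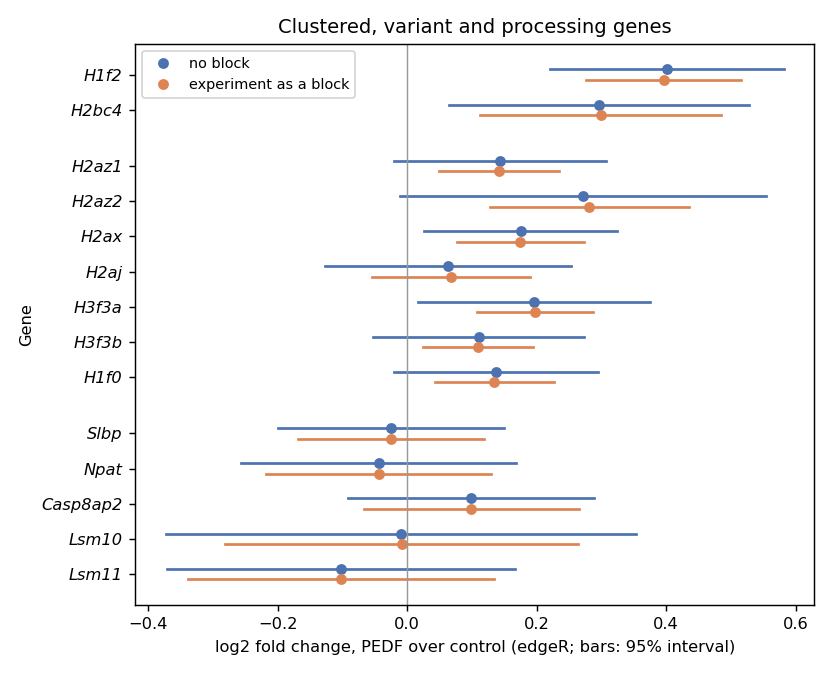
Log2 fold change of PEDF over control for *H1f2* and *H2bc4*, for 7 histone variant genes and for 5 histone mRNA processing genes, from edgeR without the block (blue) and with the experiment as a block (orange), with 95% intervals. *H1f2* is at 0.40 and *H2bc4* at 0.30, the variants lie between 0.06 and 0.27 without the block and between 0.07 and 0.28 with it, and the processing genes between -0.10 and 0.10.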

How the data were processed

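Poly(A) RNA of 4 MEF cultures (2 control, 2 PEDF) was sequenced by the authors as paired-end directional libraries, trimmed with Trimmomatic 0.38, aligned with HISAT2 2.1.0 and counted over genes with featureCounts 1.6.3. The authors deposited raw counts per gene and, for each library, TPM, which sums to 1000000. The members and gene lists were chosen with earlier results of these data known. The genes named are those called in either edgeR fit, the 12 with the highest mean CPM, the 3 highest and 3 lowest log2 fold changes among genes with at least 50 counts, and fixed variant and processing genes.

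Counts were tested with edgeR 4.0.16 (R 4.3.3, quasi-likelihood, robust, TMM) on genes with at least 10 counts in all, with Benjamini-Hochberg adjustment over 19384 genes. TPM was used for levels between genes. Same-numbered libraries come from the same embryos, and their deviations from the group means correlated (r = 0.423 over 10722 genes), so the blocked fit is given beside the main one. Alternatives were DESeq2 1.42.0, other normalizations and filters, a correction for exon length, limma 3.58.1 on log2(TPM + 1) and leaving out each library. The edgeR step was tested on simulated data with larger changes than those called here and no difference between experiments. That test says nothing of how well the fits call changes as small as those found here. Transcripts were taken from GENCODE M21, and its exon lengths were missing for 260 genes. Within-experiment intervals cover counting error only.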

Additional observations from a re-analysis of the deposited data

How the results depend on the processing

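Of the 43 tested clustered histone genes, 0 were called by edgeR without a block, by DESeq2, with RLE size factors, with filterByExpr or by limma. With no filter on low counts 1 was called, with the replicate block 2, and with the block and the length correction 1. Leaving out each library gave 0 to 1, with *H1f2* called without control 1 (edgeR adjusted p = 0.0335) and without PEDF 2 (0.0222), each time with a lone library assumed to vary like the other group. DESeq2 with the block gave an adjusted p for 0 of the 43, since its filter on the mean count set them aside. The cut was high, as *H1f2* with 5282 counts in all was also set aside, where the median of all tested genes was 775.5. Without that filter, an alternative added after seeing the data, it called 0 (*H1f2*, adjusted p = 0.128). Over all alternatives the adjusted p of *H1f2* ran from 2.49e-08 to 0.999 and its log2 difference from 0.29 to 0.51, always positive. With a library left out the log2 difference ran from 0.18 to 0.42 for *H2bc4*, 0.22 to 0.70 for *H1f3*, 0.06 to 0.51 for *H2az2*, 0.08 to 0.31 for *H3f3a*, 0.06 to 0.22 for *H2az1*, 0.03 to 0.19 for *H3f3b*, 0.05 to 0.22 for *H1f0*, 0.12 to 0.36 for *Tyms* and -0.40 to -0.04 for *Hjurp*. An unadjusted p under 0.05 was reached by 6 genes, by 9 in limma, by 3 in DESeq2, by 2 in DESeq2 with the block under either adjustment, and by 3 to 7 with a library left out. The pairing of the experiments, kept as a block, called 3 variants, 1 chaperone and 1 S phase gene in edgeR where 0 were called without it, and 0 of each list in DESeq2 among the genes it adjusted, with its filter or without. With the block and the length correction these were 1, 2 and 1. Leaving out a library gave 0 to 1 variants and 0 to 1 chaperones. Of the marker lists, the block called 5 of 10 fibroblast and 1 of 6 macrophage markers, where 0 were called without it. It changed no other call named here.

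Genes near 0 changed sign under single alternatives, none of them called. *H2aw* was at -0.065 with the length correction and -0.014 by limma, *H3c15* at -0.0075 by DESeq2 and *H2aj* at -0.011 with the length correction. When single libraries were left out, the log2 difference ran from -0.0097 to 0.31 for *H4c9*, -0.054 to 0.069 for *H2aw*, -0.72 to 0.16 for *H2bc21*, -0.42 to 0.29 for *H2bu2*, -0.075 to 0.41 for *H2bc6*, -0.41 to 0.21 for *H2ac8*, -0.72 to 1.42 for *H3c15*, -0.057 to 0.19 for *H2aj*, -0.053 to 0.0029 for *Slbp*, -0.14 to 0.045 for *Npat*, -0.21 to 0.20 for *Lsm10* and -0.41 to 0.26 for *Zfp473*. The cause was not tested. With 2 libraries a group and a median of 23 counts, the precision for most members is limited.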
